A study of Homo sapiens with 3 samples.

Results

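FOS, FOSB, FOSL2, JUN, JUNB, JUND, EGR1, IER2, IER3 and MYC, 10 genes of the immediate early, AP-1 and MYC group, were followed at the RNA level in PANC-1 cells. They were chosen by gene symbol as a functional group, and all 10 were found among the 51136 genes of the count table. PANC-1 is an established human pancreatic duct cancer cell line, grown here in medium with fetal calf serum. RNA-seq was done on 1 library of untreated cells (control), 1 library of cells given 200 µM ginsenoside Rg3 for 24 h, and 1 library of cells given 50 µM tamoxifen (TAM) for 24 h. Rg3 is a saponin of ginseng, and TAM is an estrogen receptor modulator that also inhibits protein kinase C. The labels name no agent for the control, so it is not known whether it received the solvent of either drug. The question of the design was how the expression profile looked after Rg3 or TAM. With 1 library per condition, no difference below has a replicate check, and every interval covers counting error only. The control, Rg3 and TAM libraries held 11300766, 12861693 and 11321442 reads assigned to genes.

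Immediate early genes are switched on within minutes of a stimulus such as serum, without new protein synthesis, and most of their mRNAs are short-lived. ERK signalling acts through the serum response factor and its ternary complex partners at FOS and EGR1, and JNK acts on JUN protein. FOS proteins (FOS, FOSB, FOSL1, FOSL2) pair with JUN proteins (JUN, JUNB, JUND) to form AP-1, which binds the sequence also known as the phorbol ester response element. MYC pairs with MAX and drives genes of ribosome making and nucleotide synthesis. In carcinoma cells with an active RAS pathway, part of this set is expressed without an acute stimulus.

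The 10 genes were mostly compact, and the transcript used for 5 of them had a single exon. In GENCODE 29 on GRCh38, the positions of 9 of them are as follows. FOS lies at chr14:75278774-75282230, FOSB at chr19:45467995-45475179 and FOSL2 at chr2:28392448-28417312. JUN lies at chr1:58780788-58784327, JUNB at chr19:12791496-12793315 and JUND at chr19:18279760-18281622. EGR1 lies at chr5:138465490-138469315, IER2 at chr19:13150415-13154908 and IER3 at chr6:30743199-30744554. The longest coding transcript of JUN, JUNB, JUND, IER2 and IER3 has a single exon, which makes 5 of 10, or 50%, against 2.36% of the 12083 coding genes compared. The genes spanned a median of 3683 bases against 32693, and 9 of 10 spanned under 10000 bases against 18.8%. The exception was FOSL2, with 24865 bases. Their transcripts were also rich in G and C, with a median GC content of 57.2% against 49.2%, from 52.6% in FOS to 69.7% in JUND. None of the 10 shared a stretch of 50 bases with a transcript of another gene. Exons of JUNB overlap HOOK2 on the opposite strand, those of IER2 overlap AC011446.2, and those of IER3 overlap IER3-AS1. The use of strand in counting was not given in the sources used here, so reads of these pairs cannot be told apart.

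AU-rich elements in the 3′ untranslated region, with ATTTA as their core, are the classical signal for fast decay of these mRNAs. MYC held 8.40 ATTTA per kilobase of its 3′ untranslated region, IER3 6.64, FOS 6.20 and JUNB 4.0, which placed them at the percentiles 98.8, 96.9, 95.9 and 85.9 of 11673 genes. JUN held 2.33, FOSL2 1.85, JUND 1.47, FOSB 1.39 and EGR1 0.81, and IER2 held none. The median was 2.09 for the 10 genes against 1.65, so that a dense element was a property of some of them. The 30 bases with the most ATTTA are shown for 4 genes that were higher in the TAM library (FOS, IER3, JUNB, JUN) and for JUND and EGR1, which were not. They are printed 5′ to 3′ on the strand of the gene with ATTTA in capitals, from chr14:75282057-75282086, chr6:30743648-30743677, chr19:12793059-12793088, chr1:58781336-58781365, chr19:18279998-18280027 and chr5:138469063-138469092 of GRCh38.
FOS: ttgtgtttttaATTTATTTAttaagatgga
IER3: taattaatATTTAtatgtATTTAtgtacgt
JUNB: aatatatttgtgtATTTAacagggagggga
JUN: ttccagaaaggatATTTAagaaaatacaat
JUND: tcgattctgccctATTTAtgtttctactcg
EGR1: actgaaaatgtaaATTTAtaaatatattca
FOS carries overlapping copies, IER3 carries separate copies, and the other sites shown carry a single one. MYC, with the densest elements, differed little between the libraries, as given below. IER2, not shown, was also higher in the TAM library and held no ATTTA. FOSL2, not shown, was within the limit used below before trend removal, and held 2 ATTTA in its densest 30 bases.

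Promoters from 250 bases before to 50 bases after the RefSeq start (GRCh38.p14) were at hand for 8 of the 10 genes, and those of JUN, FOS and JUNB are shown beside JUND and EGR1 because the former were higher in the TAM library and the latter were not. Motifs were searched on both strands and a match is a description only. The TATA box TATAAA was found in FOS at -33, in JUNB at -31 and in FOSB at -30, against 11.5% of 35116 promoters. FOSB, whose promoter is not shown, was not higher in the TAM library. JUN held TGACATCA, the AP-1-like element that JUN and ATF2 bind, at -67 (2.61% of promoters), and JUND held the full cyclic AMP element TGACGTCA at -200 (1.85%). EGR1 held a pair of CArG boxes, the site of the serum response factor, at -105 and -83 (any such box, 1.29% of promoters). Sites more than 250 bases before the start, in FOS or any other gene, lay outside the sequences searched. TGACTCA, the AP-1 site, was found in FOSL2 (4.95%), and the EGR site GCGTGGGCG in none of the 8 (0.795%). The shorter motif TGACG, which is also part of TGACGTCA, was found in 8 of 8 against 24.6% of promoters. CCAAT was found in JUN, JUNB and JUND (34.6%), and GGGCGG in 6 of 8 (45%). The sequences run 5′ to 3′ on the strand of the gene, with these motifs of FOS (TATAAA), JUN (TGACATCA), JUNB (TATAAA), JUND (TGACGTCA) and EGR1 (CArG boxes) in capitals, from chr14:75278578-75278877, chr1:58783998-58784297, chr19:12791236-12791535, chr19:18281573-18281872 and chr5:138465229-138465528.
FOS: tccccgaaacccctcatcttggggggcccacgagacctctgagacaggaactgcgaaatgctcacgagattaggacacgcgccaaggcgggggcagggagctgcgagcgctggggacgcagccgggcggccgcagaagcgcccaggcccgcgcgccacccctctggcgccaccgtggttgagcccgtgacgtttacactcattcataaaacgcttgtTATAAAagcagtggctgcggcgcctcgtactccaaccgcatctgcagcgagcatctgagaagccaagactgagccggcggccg
JUN: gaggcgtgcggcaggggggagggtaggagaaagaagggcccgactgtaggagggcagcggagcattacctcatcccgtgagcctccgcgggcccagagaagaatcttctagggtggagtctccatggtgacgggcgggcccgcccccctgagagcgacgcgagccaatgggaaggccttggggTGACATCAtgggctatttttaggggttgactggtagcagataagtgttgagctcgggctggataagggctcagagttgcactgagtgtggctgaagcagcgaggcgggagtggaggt
JUNB: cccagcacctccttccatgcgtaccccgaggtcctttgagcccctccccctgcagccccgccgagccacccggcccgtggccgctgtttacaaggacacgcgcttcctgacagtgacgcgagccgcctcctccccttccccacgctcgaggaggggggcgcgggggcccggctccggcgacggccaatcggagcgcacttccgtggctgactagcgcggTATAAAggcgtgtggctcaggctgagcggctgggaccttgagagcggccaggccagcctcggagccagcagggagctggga
JUND: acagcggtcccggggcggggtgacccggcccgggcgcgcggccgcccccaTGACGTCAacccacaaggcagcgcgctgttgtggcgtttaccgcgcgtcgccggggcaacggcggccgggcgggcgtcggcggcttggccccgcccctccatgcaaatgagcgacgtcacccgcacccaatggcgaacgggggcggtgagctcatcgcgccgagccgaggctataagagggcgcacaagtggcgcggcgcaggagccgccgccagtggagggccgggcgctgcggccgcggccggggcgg
EGR1: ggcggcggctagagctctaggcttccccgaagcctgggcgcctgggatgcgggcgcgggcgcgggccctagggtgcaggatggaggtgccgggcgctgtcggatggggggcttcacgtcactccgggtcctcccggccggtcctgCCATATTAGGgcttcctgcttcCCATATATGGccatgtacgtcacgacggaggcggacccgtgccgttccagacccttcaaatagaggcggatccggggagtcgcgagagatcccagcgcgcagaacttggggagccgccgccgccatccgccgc

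Several facts of the libraries bear on every value. Counts were scaled with TMM factors, which assume that most genes did not change, and relative to plain library totals this shifted log2 fold changes by -0.14 for Rg3 and by 0.21 for TAM. Fold changes followed GC content across genes with at least 50 counts, falling with it in the Rg3 library (Spearman's rho -0.81 over 11583 genes) and rising with it in the TAM library (0.52 over 11022 genes). With transcript length, rho was 0.21 with Rg3 and -0.48 with TAM. Genes are not independent replicates and share the library, so these are descriptions. Values after removal of a smooth trend on GC content and length are given as trend-removed values. PANC-1 markers were present, with KRT8, KRT18 and VIM at 7406 to 55276 counts. Summed levels of all 9 markers were 7302, 3915 and 7123 CPM (a gene's counts divided by the TMM-corrected library size) in the control, Rg3 and TAM libraries. KRT8, KRT18 and VIM made up most of each sum. In the same order, KRT19 had 665, 290 and 181 counts and KRT7 248, 93 and 345. EPCAM and GATA6 reached at most 26 and 12 counts, and CDH1 went from 76 counts in control cells to 5 after TAM. The 7 acinar and islet markers were at 0 in all libraries. Of 8 blood and vessel markers 4 were at 0 and 1, CD68, had 10 or more counts (426 to 1100), and of 6 fibroblast markers COL1A1 and COL3A1 did (89 to 1853). In a bulk sample, fewer cells with a transcript and less of it per cell cannot be told apart.

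In control cells the set was led by IER3, with MYC next, and classical FOS was almost silent. Levels between genes are compared as CPM per kilobase of transcript, with exact 95% Poisson intervals. IER3, a stress-response and survival factor, stood at 149, and MYC at 39.3. JUN at 20.3, IER2 at 17.6 and JUND at 16.8 formed a group in which neighbours had overlapping intervals. JUNB followed at 8.42, FOSL2 at 5.58 and EGR1 at 1.36, each apart from its neighbours. FOSB at 0.65 and FOS at 0.57 were lowest, with overlapping intervals. Among the 17824 genes with both a read in the control library and a known transcript length, IER3 was at the percentile 97.1 and FOS at 24.8.

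The order was nearly kept with Rg3 and shifted with TAM. With Rg3, IER3 stood at 98.9 and MYC at 34.1, followed by IER2 at 15.8, JUND at 15.5 and JUN at 14.8, whose intervals overlapped. JUNB was at 6.75, FOSL2 at 4.07, EGR1 at 1.5, FOS at 0.42 and FOSB at 0.29, and the last pair overlapped. With TAM, IER3 stood at 325, and JUN at 46.0 was level with MYC at 42.8, since their intervals overlapped. IER2 was at 29.6, JUNB at 19.1 and JUND at 15.6, the last pair overlapping, and FOSL2 at 7.59. FOS at 1.54, EGR1 at 1.22 and FOSB at 0.59 closed the order, and neighbours among them overlapped.

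**Figure D1:**
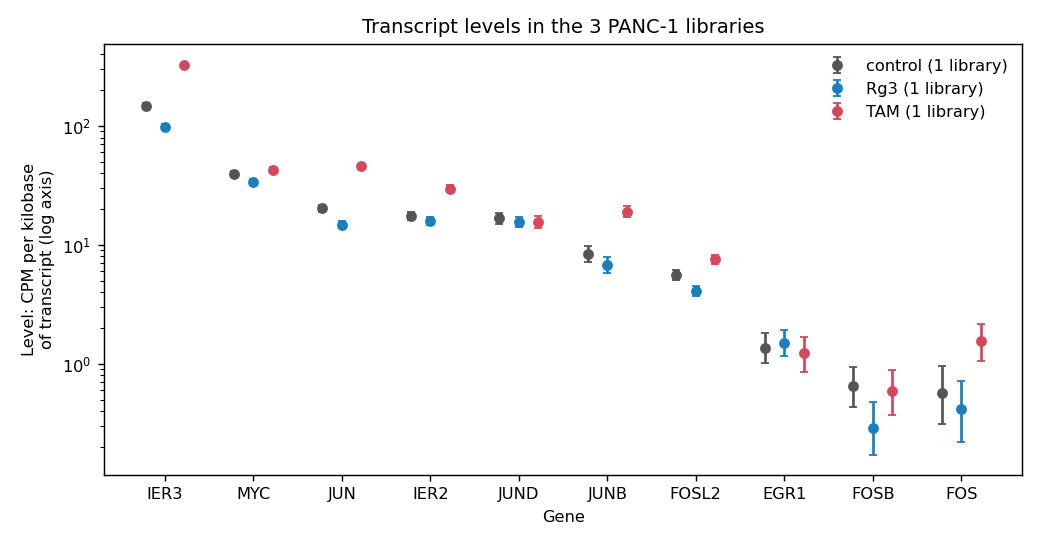
Level of each gene as CPM per kilobase of transcript (log axis) in the control, Rg3 and TAM libraries, 1 library each; bars are exact 95% Poisson intervals, counting error only. IER3 was highest in each library, from 98.9 with Rg3 to 325 with TAM, and FOS moved from 0.57 in the control library to 1.54 with TAM.

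TAM and control were compared first. In the TAM library, 5 of the 10 genes lay past the 1.5-fold limit of the study on the higher side (JUN, JUNB, FOS, IER3 and IER2) and 0 on the lower side, while FOSL2, MYC, JUND, FOSB and EGR1 lay within it. Among all 16079 genes compared, 17.4% were past the limit on the higher side and 23.8% on the lower. The median log2 fold change of the 10 genes was 0.60, against -0.02 over all genes. With the GC and length trend removed, 5 were again higher and 0 lower (median 0.59), with FOSL2 in place of IER2, and of all genes 13.7% were higher and 14.9% lower.

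JUN encodes the main DNA-binding and activating partner of AP-1, and it had 824, 754 and 1620 counts in the control, Rg3 and TAM libraries, or 71.8, 52.4 and 163 CPM. The TAM library was high and the others were closer together, so that the log2 fold change with TAM was 1.18 (95% interval 1.06 to 1.30). The trend-removed value was 1.03. JUNB, an AP-1 partner with weaker activation, had 176, 177 and 345 counts, or 15.3, 12.3 and 34.7 CPM, in the same order. Here too the TAM library stood alone, at 1.18 (0.91 to 1.45) and 0.75 after trend removal. JUND, the JUN protein of resting cells, did not share this. It had 359, 415 and 290 counts, or 31.3, 28.8 and 29.1 CPM, with overlapping intervals in the 3 libraries and a value of -0.10 with TAM (-0.33 to 0.13; trend removed, -0.47).

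Among the FOS proteins, FOS itself was higher with TAM but from a low base. FOS was read 14, 13 and 33 times in the control, Rg3 and TAM libraries, or 1.22, 0.90 and 3.32 CPM. The log2 fold change with TAM was 1.44, the largest of the 10 genes, with the widest interval (0.50 to 2.46; trend removed, 1.16). FOSB had 28, 16 and 22 counts (2.44, 1.11 and 2.21 CPM), and its TAM value of -0.14 had an interval from -1.02 to 0.72 (trend removed, -0.28), so that no difference was detectable at this depth. FOSL2, also called FRA-2, had 430, 393 and 507 counts (37.5, 27.3 and 50.9 CPM). Its intervals did not overlap between the TAM and control libraries, and its value of 0.44 (0.26 to 0.63) lay within the 1.5-fold limit, while the trend-removed value of 0.71 was past it.

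The other genes of the set divided in the same comparison. IER3 had 2303, 1923 and 4372 counts, or 201, 134 and 439 CPM. It was the most abundant gene of the set and had the narrowest counting interval, at 1.13 with TAM (1.06 to 1.20; trend removed, 0.70). Library totals gave 0.92 and upper-quartile factors 1.26, both outside that interval. IER2, a small nuclear protein induced by serum, had 592, 666 and 865 counts (51.6, 46.3 and 86.9 CPM) and a TAM value of 0.75 (0.60 to 0.91), which was 0.48 and within the limit once the trend was removed. EGR1, a zinc finger factor and the classical serum response factor target, had 49, 68 and 38 counts (4.27, 4.72 and 3.82 CPM). Its intervals overlapped in the 3 libraries and its TAM value was -0.16 (-0.81 to 0.48; trend removed, -0.33). MYC, at chr8:127735434-127741434, had 1068, 1162 and 1007 counts, or 93.0, 80.7 and 101 CPM. Its TAM value of 0.12 (-0.00 to 0.25) was -0.09 with library totals and -0.15 with the trend removed, so its direction was set by the scaling.

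**Figure D2:**
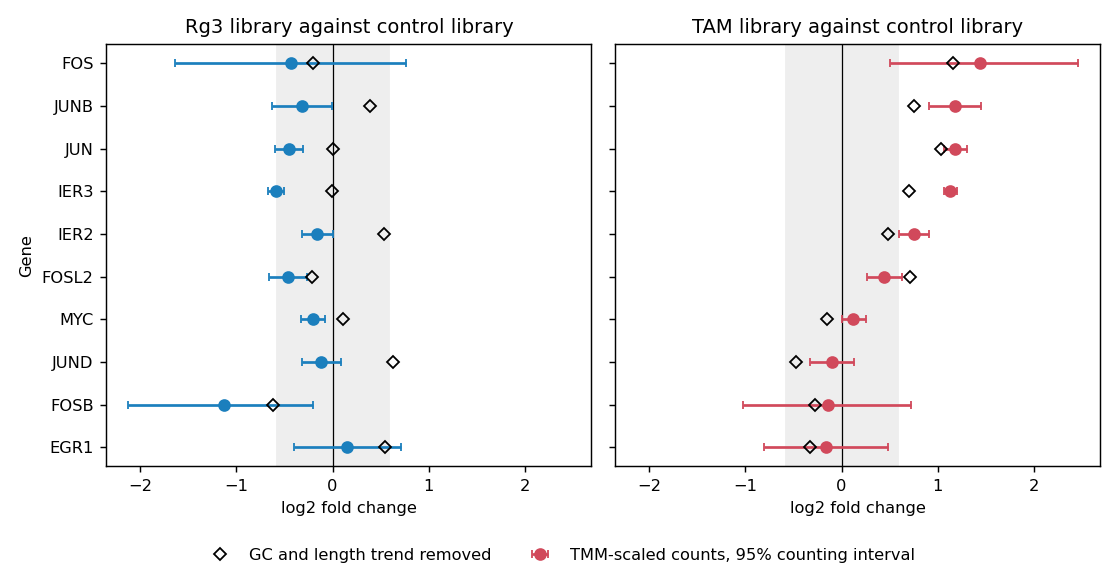
Log2 fold change of the 10 genes in the Rg3 library (left) and the TAM library (right) against the same control library, 1 library each; filled points are TMM-scaled values with 95% counting intervals, open diamonds are values with the GC and length trend removed, and the grey band is the 1.5-fold limit. FOS, JUNB, JUN, IER3 and IER2 lie past the band with TAM, and FOSB and IER3 with Rg3.

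With Rg3, the set lay mostly within the limit. Against control, 0 of the 10 genes were higher and 2, FOSB and IER3, were lower, beside 25.0% higher and 19.5% lower among all 16487 genes compared, so that the share of lower genes was near that of all genes. The median log2 fold change was -0.38, against 0.04 over all genes, and it was 0.06 with the trend removed, when 8.88% of all genes were higher and 9.92% lower. FOSB stood at -1.13 (-2.12 to -0.20), from 28 counts to 16 (trend removed, -0.62). IER3 stood at -0.59 (-0.67 to -0.50), a ratio of 0.666 beside the limit of 0.67, and its trend-removed value was -0.01. With library totals IER3 was at -0.45 and within the limit.

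The JUN and FOS proteins were at or below control in the Rg3 library before the trend was removed. JUN stood at -0.45 (-0.60 to -0.31) and FOSL2 at -0.46 (-0.66 to -0.26), with intervals apart from 0 but within the limit. Trend-removed values were 0.01 for JUN and -0.21 for FOSL2. JUNB at -0.32 (-0.63 to -0.01) had a trend-removed value of 0.39, and JUND at -0.12 (-0.32 to 0.09) one of 0.63, the only value of the set that was then higher past the limit. FOS at -0.43 could not be resolved (-1.64 to 0.76; trend removed, -0.20), nor could EGR1 at 0.15 (-0.40 to 0.71; trend removed, 0.55). IER2 stood at -0.16 (-0.32 to 0.01) and MYC at -0.20 (-0.33 to -0.08), with trend-removed values of 0.53 and 0.11.

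Base composition moved with fold change across all genes, and its part in the values of the set was not tested. Within the set, GC content did not order the values in that way. FOS, with the lowest GC content of the set (52.6%), stood at -0.43 with Rg3 and 1.44 with TAM. JUND, with the highest (69.7%), stood at -0.12 and -0.10. Transcripts with a GC content of 55% to 60%, where JUN, FOSB, EGR1 and IER3 lie, had a median log2 fold change of -0.46 with Rg3 and 0.34 with TAM. Between 60% and 65%, where JUNB and IER2 lie, the medians were -0.60 and 0.43. The trend on GC content and length fitted -0.47 for JUN with Rg3, close to its measured -0.45, and 0.15 with TAM, far under its measured 1.18. For JUND it fitted -0.75 with Rg3 and 0.37 with TAM, beside measured values of -0.12 and -0.10.

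**Figure D3:**
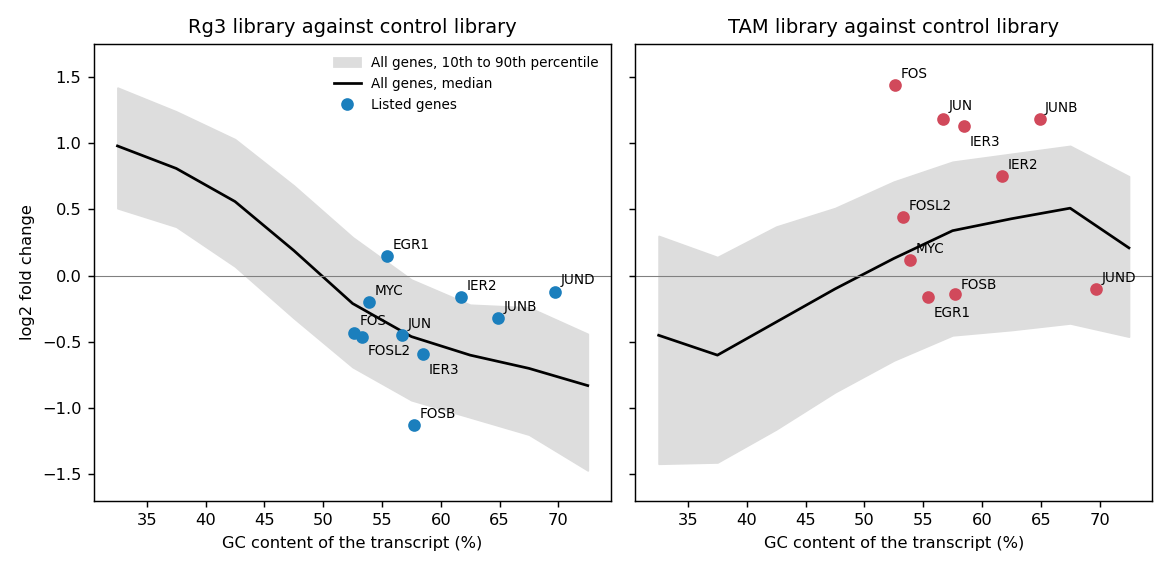
Log2 fold change against the GC content of the longest coding transcript (the longest transcript where none was coding), with Rg3 (left) and TAM (right) against control. The line is the median and the grey area the 10th to 90th percentile of genes with at least 50 counts in windows of 5% GC. Points are the 10 genes. With Rg3 JUN (-0.45) and IER3 (-0.59) lie near the line. JUND (-0.12), EGR1 (0.15) and IER2 (-0.16) lie above the grey area with Rg3, and FOSB (-1.13) lies below it. The Rg3 intervals of FOSB, EGR1 and IER2 reach into the grey area. With TAM FOS, JUN, JUNB and IER3 (1.13 to 1.44) lie above the grey area. FOS, with 14 and 33 counts, is under the 50 counts asked of the genes in the grey area, and its interval (0.50 to 2.46) reaches into it. FOSB, with 28 and 16 counts in the Rg3 comparison, is under that number too.

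The treated libraries were also set against each other, at their different doses of 200 µM Rg3 and 50 µM TAM. This comparison and the others share libraries, so they are not independent. In the Rg3 library 7 of the 10 genes were lower than in the TAM library (FOS, JUN, JUNB, IER3, FOSB, FOSL2 and IER2) and 0 were higher, while 35.1% of all 16493 genes were higher and 30.2% lower. The median was -0.95, against 0.08 over all genes. IER3 stood at -1.72 (-1.80 to -1.64), JUN at -1.64 (-1.76 to -1.51) and JUNB at -1.50 (-1.77 to -1.23). FOS was at -1.88 (-2.93 to -0.91). With the trend removed IER3 was at -0.71, JUN at -1.02, JUNB at -0.35 and FOS at -1.37, and 4 genes were lower and 2 higher (median -0.34), beside 18.5% lower and 18.7% higher among all genes.

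The remaining genes differed less, or their value moved with the trend. FOSL2 stood at -0.90 (-1.09 to -0.71; trend removed, -0.91), and FOSB at -0.99 (-2.02 to 0.00; trend removed, -0.34). IER2 was at -0.91 (-1.06 to -0.76) and at 0.06 with the trend removed, a change of sign. MYC at -0.33 (-0.45 to -0.20) was 0.02 with library totals. JUND at -0.02 (-0.24 to 0.21) and EGR1 at 0.31 (-0.29 to 0.92) were the 2 genes that passed the higher limit with the trend removed, at 1.10 and 0.88.

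Because shares within a library do not depend on the scaling between libraries, the make-up of each AP-1 family was counted as well. Of the reads of JUN, JUNB and JUND together, JUN held 60.6% of 1359 in control cells (exact 95% interval 58.0 to 63.2), 56.0% of 1346 after Rg3 (53.3 to 58.7) and 71.8% of 2255 after TAM (69.9 to 73.7). For JUND the shares were 26.4% (24.1 to 28.8), 30.8% (28.4 to 33.4) and 12.9% (11.5 to 14.3). JUNB held 13.0%, 13.2% and 15.3%, with overlapping intervals. The family thus consisted more of JUN and less of JUND in the TAM library, and the ratio of JUN to JUND reads was 2.3 in control cells, 1.82 after Rg3 and 5.59 after TAM. Per length of transcript, JUN made up 44.6%, 40.0% and 57.0% and JUND 36.9%, 41.8% and 19.4%. JUND has the highest GC content of the set, and the part of base composition in these shares was not tested.

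**Figure D4:**
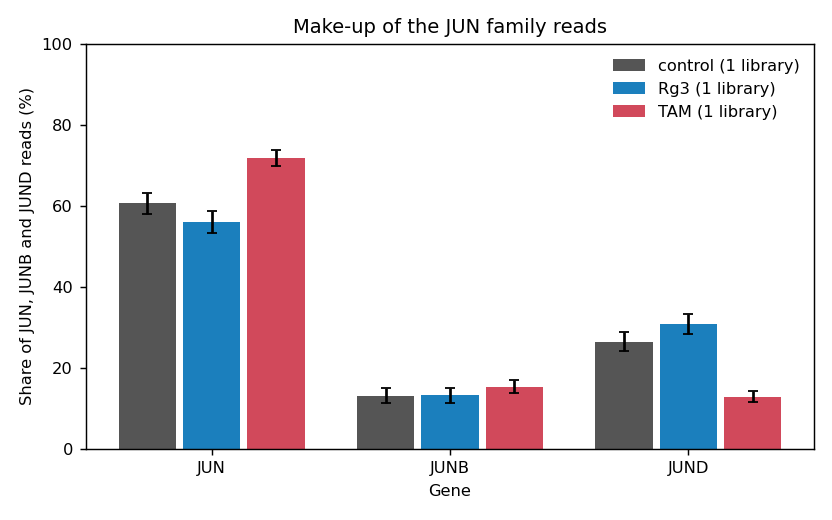
Share of the reads of JUN, JUNB and JUND held by each gene (percent, from 0) in the control, Rg3 and TAM libraries, 1 library each; error bars are exact 95% binomial intervals, counting error only. In the TAM library JUN stands at 71.8% and JUND at 12.9%.

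Among FOS proteins, most reads came from FOSL1 (FRA-1), a gene outside the set that is added here because it dominates the family. It had 1385, 1241 and 2088 counts in the control, Rg3 and TAM libraries. It held 74.6%, 74.6% and 78.8% of the family reads, and FOSL2 held 23.2%, 23.6% and 19.1%. Per length of transcript, FOSL1 made up 91.4%, 91.5% and 92.8% and FOSL2, whose transcript is longer, 7.1%, 7.2% and 5.6%. FOS and FOSB each held at most 1.5% in every library. FOSL1 shares 3.64% of its stretches of 50 bases with the pseudogene FOSL1P1. FOSL1 and FOSL2, the FRA genes, thus made up most of the FOS family reads in each library.

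The genes nearest to a member in their pair of log2 fold changes were sought among 3426 genes with at least 500 counts in every library, as a distance on the log2 scale over 3 libraries. JUN was nearest to ID1 (0.050), MBD3 (0.064) and TSR3 (0.067), and 4 genes lay within 0.1. FOS had none within 0.1, with STC2 (0.104), AKR1B1 (0.122) and ATAD3B (0.136) as its nearest. Near EGR1 lay BUB3 (0.023) and DIAPH1 (0.023), with 38 genes within 0.1, and MYC was nearest to SZRD1 (0.009), TBC1D2B (0.013) and DVL2 (0.028), with 65. The counting intervals of FOS and EGR1 are far wider than 0.1, so their nearest genes are not determined by these counts.

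Other bZIP proteins that pair with FOS or JUN were described next. Of 11 compared, 4 were higher and 0 lower with TAM (median 0.49), and 2 were higher and 3 lower with Rg3 (median -0.25). Over all genes, 17.4% were higher and 23.8% lower with TAM, and 25.0% and 19.5% with Rg3, and these shares also stand behind the lists that follow. With the trend removed, 2 bZIP genes were higher and 0 lower with TAM, and 2 and 1 with Rg3. With TAM, FOSL1 stood at 0.80 (0.70 to 0.90; trend removed, 0.38), MAFG, a small MAF protein, at 0.82 and MAFK, another, at 1.01 (741 to 1132 and 1123 to 1965 counts; trend removed, 0.82 and 0.77). Exons of MAFK overlap TMEM184A on the opposite strand and those of MAFG overlap SIRT7. With Rg3, ATF3, a stress-induced bZIP repressor, had 91 counts against 34 in the control library, at 1.09 (0.51 to 1.71), and 1.18 with the trend removed. ATF2, a JUN partner, stood at 1.10 with Rg3 but at 0.21 with the trend removed, and its exons overlap AC096649.1 on the opposite strand.

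Other immediate early genes did not move as a block. With TAM, 6 of 22 compared were higher and 4 lower (median -0.00), and with Rg3, 2 of 21 were higher and 6 lower (median -0.25). With the trend removed these were 5 and 6 with TAM, and 2 and 3 with Rg3. HES1, a Notch target, went from 175 counts in control cells to 370 with TAM, at 1.29 (1.02 to 1.55; trend removed, 1.06), and CSRNP1, a nuclear AXUD1 family protein, from 207 to 429, at 1.26 (1.01 to 1.5; trend removed, 1.04). DUSP1, the phosphatase that ends ERK and JNK activity, had 1171, 914 and 1925 counts in the control, Rg3 and TAM libraries, which put it at -0.68 with Rg3 and 0.92 with TAM. Its trend-removed values of -0.29 and 0.57 were both within the limit. NR4A1, an orphan nuclear receptor, was lower with both drugs, from 94 counts to 32 with Rg3 (-1.88) and 39 with TAM (-1.06), and trend-removed values were -1.33 and -1.24. KLF6 and KLF10, Krüppel-like zinc finger factors, stood at -1.03 and -0.90 with TAM (trend removed, -0.70 and -0.74). MCL1, a BCL2 family survival protein, and TIPARP were the 2 higher with Rg3, at 0.87 and 0.98, and at 0.51 and 0.43 with the trend removed. Exons of NR4A1, CSRNP1 and TIPARP overlap further genes encoded on the other strand.

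Upstream of the set, kinases were counted in the same way. Of 18 ERK and JNK pathway kinases and RAS proteins, 8 were higher and 3 lower with Rg3 (median 0.50), and 3 were higher and 6 lower with TAM (median -0.29). With the trend removed these were 2 and 0 with Rg3, and 0 and 0 with TAM, while of all genes 8.88% were then higher and 9.92% lower with Rg3, and 13.7% and 14.9% with TAM. HRAS, a RAS protein, stood at 0.83 with TAM and at 0.34 with the trend removed. MAP2K4, which activates JNK, was at 1.23 with Rg3 (0.61 with the trend removed), and shares 6.83% of its 50-base stretches with a pseudogene. Of 8 serum response, ternary complex and cyclic AMP response regulators, Rg3 gave 3 higher (ELK4, CREB1 and CREM) and 1 lower. TAM gave 0 higher and 2 lower, with CREB1 among the lower. CREB1 and CREM are the cyclic AMP response factors of this list. None of the 6 with a fitted trend was past the limit once it was removed. ELK4, a ternary complex factor, stood at 1.23 with Rg3 and at 0.46 with the trend removed. Exons of ELK4 overlap other genes on the opposite strand.

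Feedback inhibitors of ERK and JNK differed by gene. Of 14 compared with Rg3, 3 were higher and 4 lower, and of 15 with TAM, 5 were higher and 1 lower. After trend removal these were 4 and 1 with Rg3, and 2 and 2 with TAM. DUSP6, an ERK phosphatase, had 115 counts in the control library and 275 with Rg3, at 0.93 (0.61 to 1.26; trend removed, 0.71). DUSP16, a JNK phosphatase, had 92 and 255, at 1.14 (0.79 to 1.5; trend removed, 0.96). SPRY4, a Sprouty inhibitor of RAS signalling, was higher in both treated libraries, with 445, 849 and 688 counts in the control, Rg3 and TAM libraries, at 0.61 with Rg3 and 0.83 with TAM (trend removed, 0.81 and 0.94). SPRY1 was lower with TAM, at -0.94 (trend removed, -0.83). Exons of DUSP6 overlap AC024909.2 on the opposite strand.

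Genes listed as AP-1 targets were counted next. Of 13 compared, 5 were higher and 0 lower with TAM (median 0.43; trend removed, 4 and 1), and 2 were higher and 6 lower with Rg3 (median -0.56; trend removed, 0 and 2). The lists share genes, so their counts are not separate. FOSL1 is in this list and among the bZIP partners, and DUSP1 is among the immediate early genes and the feedback inhibitors. SRF and ZFP36 are also in more than 1 list. CCL2, a monocyte chemokine, had 135 counts in the control library and 964 with TAM, at 3.04 (2.78 to 3.31; trend removed, 3.12). PLAU, the urokinase protease, went from 4120 to 7627 counts, at 1.09 (1.04 to 1.15; trend removed, 0.88), with C10orf55 overlapping it on the opposite strand, and CXCL8, a neutrophil chemokine, from 23 to 50, at 1.33 (0.59 to 2.11; trend removed, 1.36). In the Rg3 library CXCL8 had 52 counts and was also higher, at 0.85 (0.12 to 1.63), and at -0.03 with the trend removed. MMP2, a gelatinase, stood at -0.48 with TAM (-0.57 to -0.39), within the limit, and at -0.60 with the trend removed, past it. With Rg3, MMP2 stood at -1.44 (2576 to 1191 counts; trend removed, -0.98) and TIMP1, a metalloproteinase inhibitor, at -0.77 (trend removed, -0.23).

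Around MYC, whose own RNA lay within the limit in both treated libraries, its partners and targets gave small medians. Of 13 compared genes of the MAX network, 2 were higher and 0 lower with Rg3, and 3 were higher and 4 lower with TAM (trend removed, 1 and 0 with Rg3, and 1 and 3 with TAM). MXD1, a MYC antagonist, stood at 0.84 with TAM (1.41 with the trend removed), and MGA, a MAX-binding repressor, at -1.61 (-0.72 with the trend removed). Of 20 compared MYC targets, 1 was higher and 7 lower with Rg3 (median -0.24), and 4 were higher and 2 lower with TAM (median 0.26). With the trend removed these were 0 and 1 with Rg3, and 3 and 1 with TAM. CDK4, a cell cycle kinase, went from 3233 to 5873 counts with TAM, at 1.07 (trend removed, 0.75), and its exons overlap TSPAN31 on the opposite strand. TERT, the telomerase subunit, was the lowest with Rg3, at -1.52 from 55 to 24 counts (trend removed, -0.76).

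Proteins that bind AU-rich elements mostly lay within the limit. Of 8 compared, Rg3 gave 2 higher and 1 lower, and TAM gave 0 and 1. After trend removal these were 0 and 2, and 0 and 1. ZFP36L1, which promotes decay, stood at -0.82 with Rg3, also with the trend removed. TIA1, which binds such elements and holds mRNAs back from translation, stood at -1.51 with TAM (270 to 82 counts; trend removed, -0.85). The 12 common reference genes, among them ACTB, a serum response factor target, had 0 higher and 0 lower with TAM, and 3 higher and 2 lower with Rg3.

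**Figure D5:**
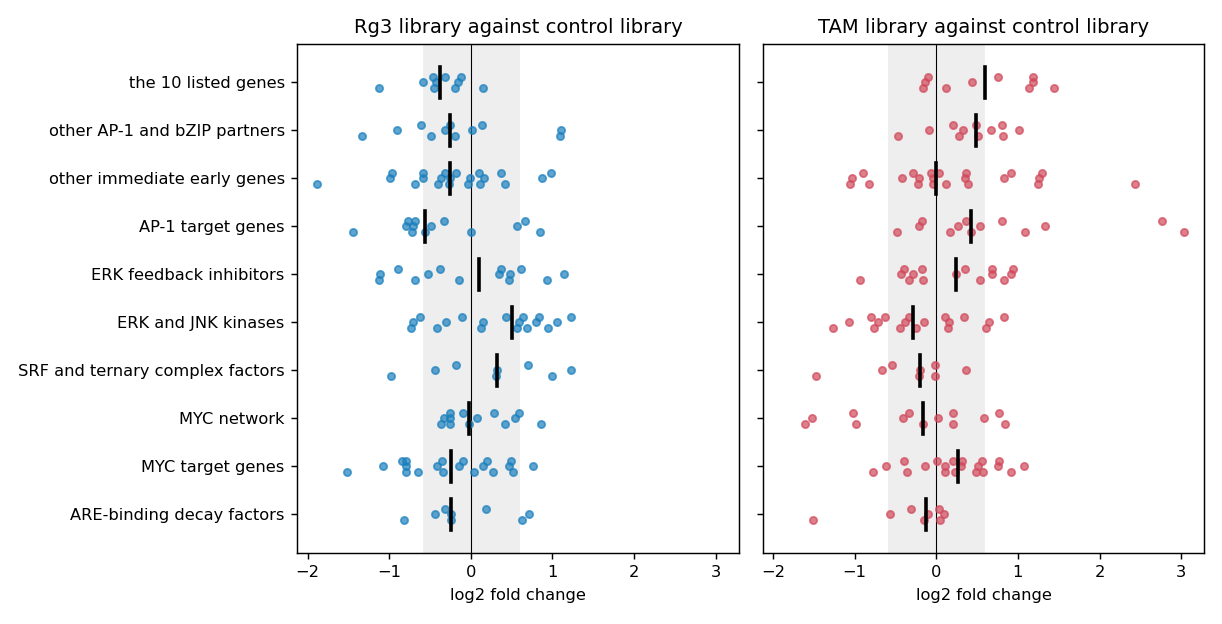
Log2 fold change of each gene (points) and the median (bar) of the 10 genes and 9 related lists with Rg3 (left) and TAM (right) against control, 1 library each; the grey band is the 1.5-fold limit. With TAM the medians of the 10 genes (0.60), the AP-1 partners (0.49) and the AP-1 targets (0.43) lie to the right of 0, and that of the kinases (-0.29) to the left. Some genes are in more than 1 list, among them FOSL1, which is both a partner and a target. The list of SRF and ternary complex factors also holds CREB1 and CREM.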

How the data were processed

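Total RNA of PANC-1 cells was sequenced on an Ion Proton instrument in 3 libraries, and whether a library pooled several cultures is not given in the sources used here. The authors deposited raw read counts per gene symbol, which they aligned with TopHat after FAST-QC. The submitters' processing notes name GRCh38, and the counting tool, annotation and strand setting were not given in the sources used here. The genes and lists were chosen with earlier results of these data known.

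Counts were scaled with TMM factors (edgeR 4.0.16, R 4.3.3) of 1.02, 1.12 and 0.879 for the control, Rg3 and TAM libraries. Genes were compared where 1 of the 2 libraries held 10 counts or more. A floor of 3 replaced smaller counts in a ratio, and past the limit means a fold over 1.5 or under 0.67. Intervals are exact (Clopper-Pearson for 2 libraries, Poisson for levels). Limma, used by the study, could not be fitted without replicates, so no test of conditions was made, and tests on reads, or with an assumed variation, served only as alternatives. GC content and length came from the longest coding GENCODE 29 transcript, or from the longest transcript of a gene with no coding one. A transcript was found for 86.5% to 87.2% of genes, and the trend was a loess fit (span 0.3). In each related list and comparison, up to 3 highest and 3 lowest genes past the limit with at least 50 counts could be named, and for FOS, JUN, EGR1 and MYC the 3 nearest genes. The results of 2 genes named by these rules are not reported here. Scripts in Python 3.11.15 were tested on simulated data.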

Additional observations from a re-analysis of the deposited data

How the results depend on the processing

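Each condition has 1 library, so no library could be left out and the spread between cultures is unknown. No paired analysis was possible because only 1 library per condition exists here. Of the 10 genes, 0 were higher with Rg3, and 1 was with the trend removed. The 2 lower with Rg3 became 1 with library totals, 4 with upper-quartile factors, 1 at 50 counts, 1 at a 2-fold limit and 1 with the trend removed. The 5 higher with TAM were 4 with library totals (IER2 at 0.54), at 50 counts and at 2-fold. An edgeR exact test with an assumed variation between cultures of 0.2 or of 0.4 left 0 of these 5 and 0 of the 2 lower with Rg3. Between Rg3 and TAM, the 0 higher became 1 with library totals and 2 with the trend removed, and the 7 lower became 4 at 2-fold, 4 at a variation of 0.2, 0 at 0.4 and 4 with the trend removed. IER2 reversed there, from -0.91 to 0.06, with the trend removed. Of the genes of the 9 related lists together, trend removal moved the higher with Rg3 from 25 to 11, the lower with Rg3 from 30 to 10, the higher with TAM from 28 to 17, and between Rg3 and TAM the higher from 36 to 16 and the lower from 50 to 29. Library totals moved the lower with TAM from 20 to 31 and the lower between Rg3 and TAM from 50 to 32. The cause of these moves was not tested beyond the trend itself. Of the 30 log2 fold changes of the 10 genes, 30 stayed within their counting interval with DESeq2 size factors (DESeq2 1.42.0), 16 with library totals, 20 with upper-quartile factors and 10 with the trend removed. FOS, FOSB and EGR1, with 13 to 68 counts, are limited by depth.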
